A study of Mus musculus with 64 samples.

Results

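The genes described are the nuclear genes for subunits of the oxidative phosphorylation complexes. They were chosen by symbol alone: names that start with Ndufa, Ndufb, Ndufc, Ndufs, Ndufv, Uqcr, Cox4, Cox5, Cox6, Cox7, Cox8 or Atp5, together with Sdha, Sdhb, Sdhc, Sdhd and Cyc1, and without the Ndufaf assembly factors. This gave 83 of the 18193 genes with a probe set of their own, 36 in complex I, 4 in complex II, 9 in complex III, 17 in complex IV and 17 in complex V. Each gene was followed through 1 probe set, the brightest of the 170 that carry these names. A further 8 symbols of these families occurred only on probe sets that name several genes and were left out. Ndufa4 and Ndufa4l2 are counted with complex I by name, although the Ndufa4 protein is now known as a subunit of complex IV.

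RNA was taken from hippocampus and prefrontal cortex of 4-month-old B6SJLF1 mice (a cross of C57Bl/6 and SJL) and hybridised to 64 Affymetrix mouse arrays. In each region 8 arrays came from Tg2576 mice given PF-04447943, 8 from Tg2576 mice given vehicle, 8 from wild-type littermates given PF-04447943 and 8 from wild-type littermates given vehicle. Tg2576 mice over-express a human mutant amyloid precursor protein, from prion protein gene sequences, and PF-04447943 inhibits the cyclic GMP phosphodiesterase PDE9A. Minipumps under the skin delivered drug or vehicle for 28 days, and the controls of both genotypes carried a pump with vehicle. The labels give no sex and do not say which hippocampus and prefrontal cortex came from the same mouse.

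Oxidative phosphorylation makes most of the ATP of neurons. Complex I (NADH dehydrogenase) and complex II (succinate dehydrogenase) pass electrons to ubiquinone, complex III (the cytochrome bc1 complex) passes them on to cytochrome c, and complex IV (cytochrome c oxidase) passes them to oxygen, while complexes I, III and IV pump protons across the inner mitochondrial membrane. Complex V, the ATP synthase, uses the proton gradient to make ATP. Several complex IV subunits exist as isoforms encoded by different genes, and Cox6a2, Cox7a1 and Cox8b are known as the heart and skeletal muscle forms.

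Values are log2 intensities, each mean with the SD over arrays, and each difference is a log2 difference with its standard error (SE) from limma. A probe set's level cannot be set against another's, so levels are compared only within a gene. A difference was called where its p, adjusted over all genes tested by the Benjamini-Hochberg method, lay under 0.05. In each region 81 of the 83 genes were bright enough to be tested. Ndufb4, a membrane arm subunit of complex I, averaged 5.31 ± 0.17 in hippocampus and 5.35 ± 0.20 in prefrontal cortex, below the filter levels of 5.94 and 5.91. That level rests on the only probe set that names Ndufb4 alone. Its other probe sets also name Ndufb4b and Ndufb4c and were left out. Cox7b2, a testis form of a complex IV subunit, averaged 4.73 ± 0.46 in hippocampus and 4.61 ± 0.40 in prefrontal cortex (SD, n = 32 each), and neither gene was tested.

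The median intensity of an array averaged 94.0 to 97.4 over the groups. Its signal range (the spread between the quartiles of its log2 values) averaged 3.60 and 3.65 in the hippocampus of Tg2576 and wild-type mice given PF-04447943, against 3.52 in the vehicle hippocampus of either genotype. The arrays numbered 1 to 4 and those numbered 5 to 8 in each group also differed: the mean signal range was 3.52 in hippocampus and 3.74 in prefrontal cortex for numbers 1 to 4, and 3.62 in hippocampus and 3.54 in prefrontal cortex for numbers 5 to 8. What these numbers stand for is not stated. RNA quality was measured as the 3′ minus 5′ log2 signal of the actin and Gapdh control probe sets. Its group means ran from 0.0521 to 0.0925 in hippocampus and from 0.1024 to 0.1528 in prefrontal cortex. The regional labels matched their markers: all 4 tested markers of CA pyramidal cells and 3 of 4 of dentate granule cells were higher in hippocampus, and 5 of 6 cortical layer markers were lower there. Striatal markers (4 of 4 lower in hippocampus), endothelial markers (4 of 4 lower) and oligodendrocyte markers (6 of 6 higher, median 0.64) differed between the regions too. So did the genes listed for parvalbumin interneurons (Pvalb, Gad1, Gad2, Kcnc1 and Syt2, 4 of 5 lower, median difference -0.46). The part of all these markers in the differences of the complexes was not tested. Of all 12954 genes tested between regions, 33.0% were higher and 39.0% lower in hippocampus. In bulk tissue, fewer cells of a type and less RNA per cell cannot be told apart.

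Hippocampus was first set against prefrontal cortex, averaged over the 4 groups of mice. Most differences in the subunit genes were small and more of them pointed down than up. Of the 81 genes tested, 47 were called, 13 higher and 34 lower in hippocampus. The called share of 58.0% lay below the 72.1% of all 12954 genes tested, of which 33.0% were higher and 39.0% lower. An unadjusted p under 0.05 was found for 50 members and for 73.8% of all genes. The median difference was -0.03 over the members and -0.02 over all genes. The median size of a difference was 0.072 over the members, against 0.16 over all genes, beside median SEs of 0.024 and 0.040. Differences larger than 0.2 were found for 9 members (11.1%) and for 40.3% of all genes. Where each array was centred on its own median, 43 of 49 calls were lower (87.8%, against 72.3% in the values as deposited), and after quantile normalization 29 of 46 were lower (63.0%). No member called in the values as deposited changed its sign under either scaling.

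The split differed between complexes. Complex I had 7 genes higher and 13 lower of 35, and complex III had 2 higher and 3 lower of 9. All 4 genes of complex II were lower. Complex IV had 4 genes higher and 9 lower of 16. In complex V 5 of 17 genes were lower, none was higher and 12 did not pass, and its median difference of -0.03 had the smallest median size, 0.035. These splits are counts, and the difference between complexes was not tested.

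**Figure D1:**
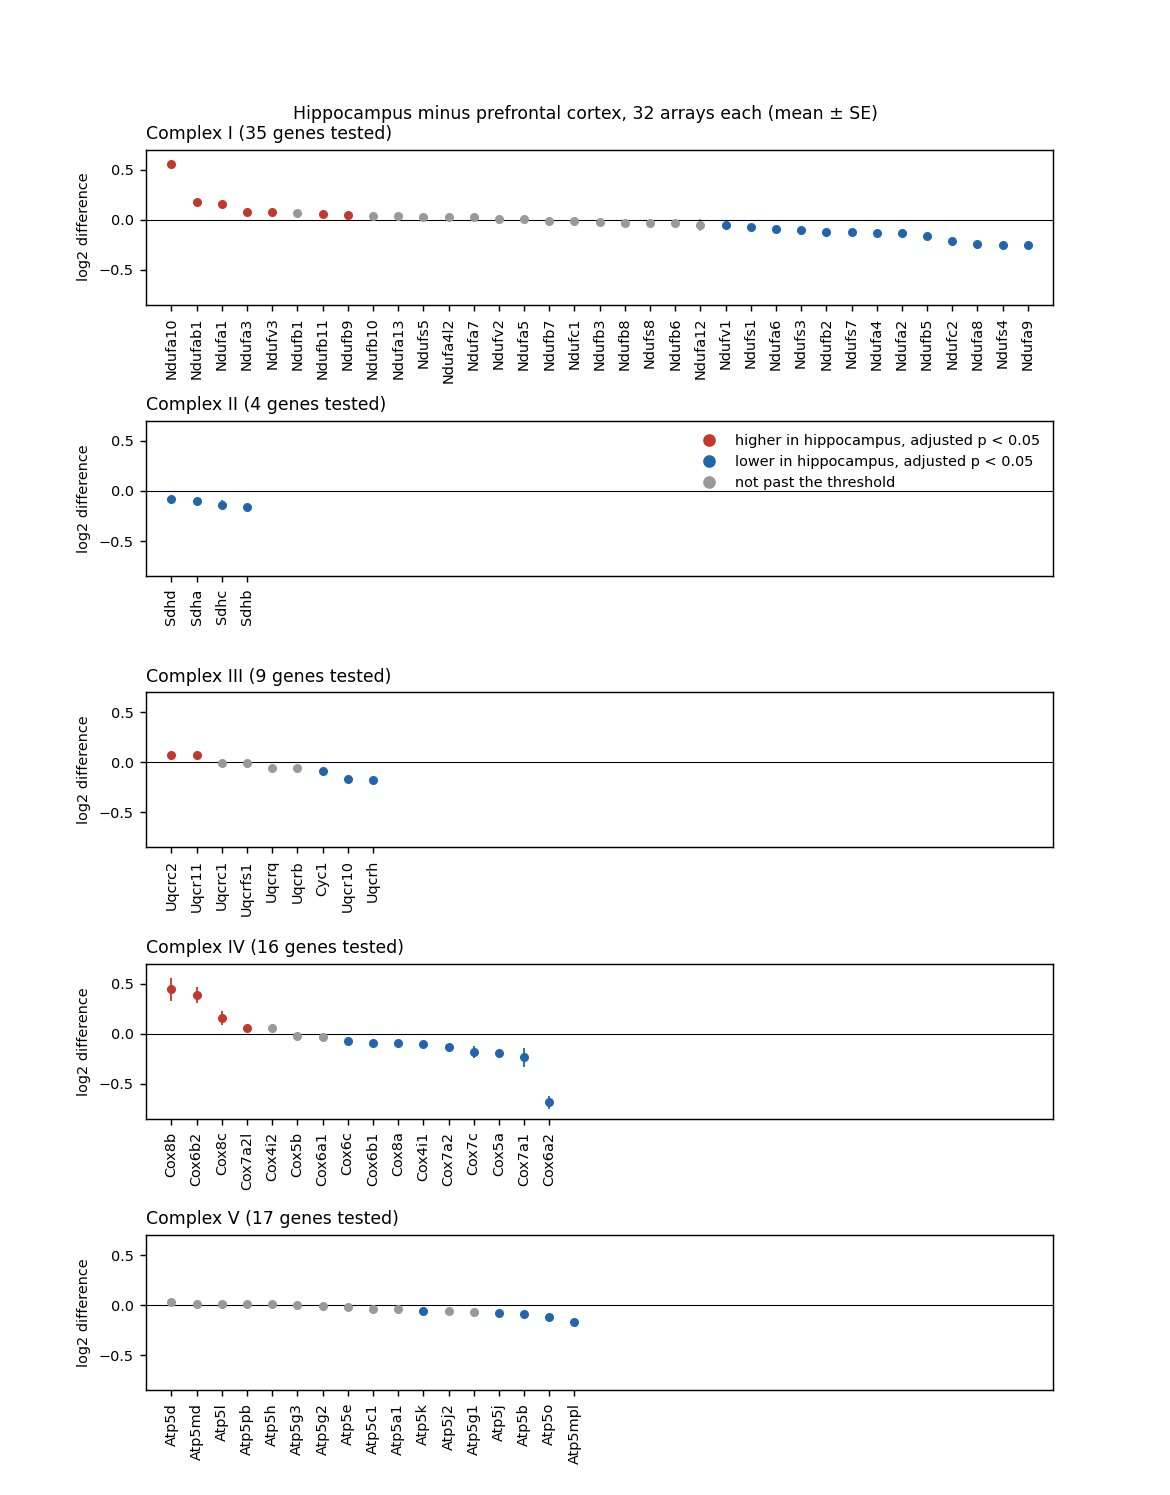
Log2 difference between hippocampus and prefrontal cortex (y axis, mean with SE, often smaller than the point) for the 81 genes tested, 1 panel per complex, 32 arrays per region. Ndufa10 stands at the top at 0.56 and Cox6a2 at the bottom at -0.69, while the ATP synthase genes lie between -0.16 and 0.03.

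In complex I, Ndufa10, a membrane arm subunit at the matrix side, stood apart. It ran from 11.90 to 12.16 (median 12.04) in hippocampus, against 11.28 to 11.62 (median 11.49) in prefrontal cortex. Every one of the 32 hippocampal arrays lay above every prefrontal cortex array. No other member of the 81 separated the regions in this way, which 1.88% of all genes tested did, 1.17% upward and 0.718% downward. The difference was 0.56 ± 0.021 (SE, adjusted p = 2.39e-32), a 1.47-fold higher value, and it lay between 0.49 and 0.64 in the 4 groups of mice. A dimmer probe set of the same gene differed by 0.16 in the same direction.

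Ndufa9, an accessory subunit at the junction of the peripheral and membrane arms, went the other way. It ran from 11.05 to 11.41 (median 11.30) in hippocampus, against 11.31 to 11.75 (median 11.53) in prefrontal cortex. The groups overlapped only over a narrow range, with 18 of 32 hippocampal arrays below the lowest prefrontal cortex array. The difference was -0.26 ± 0.024 (adjusted p = 1.49e-14). Ndufs4, an accessory subunit of the NADH-oxidising arm whose loss causes a Leigh-like disease in mice, was lower by a similar amount, with a difference of -0.25 ± 0.025 (adjusted p = 1.80e-13). It ran from 9.74 to 10.11 (median 9.98) in hippocampus, against 9.95 to 10.45 (median 10.21) in prefrontal cortex. Ndufa8, an intermembrane space subunit, averaged 11.52 ± 0.08 in hippocampus and 11.76 ± 0.08 in prefrontal cortex (SD, n = 32 each), with 27 of 32 hippocampal arrays below every prefrontal cortex array. It was lower, at -0.24 ± 0.021 (adjusted p = 5.31e-16).

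The next genes upward in complex I were Ndufab1, the mitochondrial acyl carrier protein, at 0.17 ± 0.025 (adjusted p = 1.45e-08), and Ndufa1, a small membrane arm subunit, at 0.16 ± 0.020 (adjusted p = 6.86e-10). The Ndufab1 probe set is of a type that can bind related transcripts, and 1 of the dimmer ones of this gene differed the other way, by -0.069. The core subunits that bind flavin and the iron-sulfur clusters moved little. Ndufs1 was lower, at -0.072 ± 0.023 (adjusted p = 0.00484), Ndufv1 at -0.055 ± 0.019 (adjusted p = 0.00869) and Ndufs7 at -0.13 ± 0.034 (adjusted p = 0.000713). Ndufs8 differed by -0.031 ± 0.028 and did not pass (adjusted p = 0.320). The calls of Ndufs1, Ndufv1 and Ndufs7 were lost in the arrays numbered 5 to 8 taken alone, where the differences were -0.012, 0.0089 and 0.017. Ndufs1 and Ndufv1 were also not called after quantile normalization (-0.028 and -0.025) or with the signal range as a covariate (adjusted p = 0.0567 and 0.0651), nor Ndufv1 with the mean of its probe sets (adjusted p = 0.398). Ndufa4 was lower, at -0.13 ± 0.019 (adjusted p = 3.03e-08), and its hypoxia-induced relative Ndufa4l2 differed by 0.026 ± 0.029 (adjusted p = 0.406).

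The promoters of a contrasting pair in complex I and of an isoform pair in complex IV are printed to show what lies at the start of these genes. Each runs from 250 bases before to 50 after the annotated start, 5′ to 3′ on the strand of the gene, from RefSeq on build GRCm38.p6. Capitals mark the only matches, on either strand, to 5 short motifs: GCGCA, any base and GCGC of NRF1, CCGGAAG of ETS factors, AAGATGG of YY1, TGACCTT of the estrogen-related receptors and the TATA box TATAAA. No pair of these motifs shares a base in the windows shown. Ndufa10 lies at chr1:92473709-92474008 (minus strand) and holds none of the motifs and 27 CpG dinucleotides. Ndufa9 lies at chr6:126849095-126849394 (minus strand) and holds a YY1 match. Cox8b lies at chr7:140900397-140900696 (minus strand) and holds a TATA match and 2 CpG dinucleotides. Cox8a lies at chr19:7217567-7217866 (minus strand) and holds 2 ETS matches and 19 CpG dinucleotides.
Ndufa10: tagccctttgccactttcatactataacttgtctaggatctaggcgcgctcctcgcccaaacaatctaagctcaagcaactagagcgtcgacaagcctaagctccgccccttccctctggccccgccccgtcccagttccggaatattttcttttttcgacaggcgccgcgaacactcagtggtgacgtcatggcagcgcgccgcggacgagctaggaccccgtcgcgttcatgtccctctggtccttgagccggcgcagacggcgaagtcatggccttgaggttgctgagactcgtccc
Ndufa9: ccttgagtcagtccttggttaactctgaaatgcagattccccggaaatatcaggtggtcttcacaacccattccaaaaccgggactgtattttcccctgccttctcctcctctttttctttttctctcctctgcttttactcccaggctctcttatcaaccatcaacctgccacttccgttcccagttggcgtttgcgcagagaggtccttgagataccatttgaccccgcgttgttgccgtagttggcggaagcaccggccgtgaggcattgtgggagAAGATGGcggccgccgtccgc
Cox8b: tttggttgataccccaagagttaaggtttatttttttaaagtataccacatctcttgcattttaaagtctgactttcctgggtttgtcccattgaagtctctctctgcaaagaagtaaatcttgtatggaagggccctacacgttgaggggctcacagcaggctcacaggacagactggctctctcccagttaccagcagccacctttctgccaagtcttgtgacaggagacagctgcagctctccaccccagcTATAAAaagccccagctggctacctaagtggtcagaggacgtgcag
Cox8a: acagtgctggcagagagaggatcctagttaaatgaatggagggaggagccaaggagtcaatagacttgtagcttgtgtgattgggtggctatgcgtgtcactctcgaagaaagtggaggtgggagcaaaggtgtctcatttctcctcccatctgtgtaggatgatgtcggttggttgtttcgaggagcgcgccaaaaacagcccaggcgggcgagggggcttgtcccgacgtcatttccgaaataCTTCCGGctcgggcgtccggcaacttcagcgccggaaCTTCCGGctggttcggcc

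RefSeq windows were found for 67 of the 83 genes, 72 windows in all, and were compared with all 32851 mouse windows of the same length. The NRF1 motif, bound by a regulator of many mitochondrial genes, was in 22.2% of the members' windows and 4.60% of all windows. The ETS motif was in 23.6% of the members' windows and 8.86% of all, the YY1 motif in 13.9% and 6.34%, and the motif of the estrogen-related receptors in 11.1% and 4.72%. The TATA box was in 12.5% of the members' windows and 13.6% of all. The median GC content was 58.5% over the members' windows and 52.7% over all. These shares are descriptions of sequence and were not set against the expression values.

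All 4 subunits of complex II were lower in hippocampus, each in all 4 groups of mice. Sdhb, the iron-sulfur subunit, ran from 11.83 to 12.24 (median 11.98) in hippocampus, against 11.98 to 12.35 (median 12.16) in prefrontal cortex. The 2 ranges overlapped, with 16 of 32 hippocampal arrays below the lowest prefrontal cortex array, and the difference was -0.16 ± 0.026 (adjusted p = 1.37e-07). Sdha, the flavoprotein that oxidises succinate, differed by -0.10 ± 0.023 (adjusted p = 7.28e-05), the membrane anchor Sdhc at -0.14 ± 0.046 (adjusted p = 0.00712) and the second anchor Sdhd at -0.083 ± 0.023 (adjusted p = 0.00122). The call of Sdhc was lost after quantile normalization (adjusted p = 0.0530) and with the signal range as a covariate (adjusted p = 0.0538). It was also lost in the arrays numbered 5 to 8 alone (adjusted p = 0.447). With the mean of all probe sets of a gene, Sdhc (adjusted p = 0.0506) and Sdha (adjusted p = 0.0775) were not called. The Sdha mean includes a probe set at 4.13, below the filter, which differed by 0.076, and another at 6.12, which differed by -0.023. A bright second probe set of Sdha, at 11.79, differed by -0.10.

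In complex III the small subunits moved most. Uqcrh, the hinge protein that holds cytochrome c1, averaged 12.28 ± 0.10 in hippocampus and 12.45 ± 0.09 in prefrontal cortex (SD, n = 32 each), a difference of -0.18 ± 0.025 (adjusted p = 8.19e-09). Uqcr10 was lower, at -0.16 ± 0.024 (adjusted p = 2.19e-08), and 23 of 32 hippocampal arrays lay below every prefrontal cortex array. With the mean of its probe sets, Uqcr10 was not called (-0.24, adjusted p = 0.264). Cyc1, cytochrome c1 itself, was lower, at -0.086 ± 0.021 (adjusted p = 0.000203), but was not called in the arrays numbered 5 to 8 alone (-0.041, adjusted p = 0.297). Among the core proteins, Uqcrc2 was higher by 0.079 ± 0.030 (adjusted p = 0.0168), while Uqcrc1 differed by -0.0018 ± 0.020 (adjusted p = 0.940) and the Rieske protein gene Uqcrfs1 at -0.010 ± 0.020 (adjusted p = 0.665). Uqcr11 was higher by 0.073 ± 0.027 (adjusted p = 0.0137). The calls of Uqcrc2 and Uqcr11 were lost when each array was centred on its median (adjusted p = 0.103 and 0.136), and in the arrays numbered 1 to 4 alone, where the differences were 0.064 and 0.0013 (adjusted p = 0.0637 and 0.969).

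Complex IV held the largest difference among the members, and its largest ones in either direction were in tissue-restricted isoforms. Cox6a2, the muscle form of subunit 6A, ran from 7.59 to 8.50 (median 7.97) in hippocampus, against 8.15 to 9.23 (median 8.72) in prefrontal cortex. The lower 21 of 32 hippocampal arrays lay below every prefrontal cortex array. The difference was -0.69 ± 0.065 (adjusted p = 2.37e-14), 1.61-fold lower, and lay between -0.77 and -0.53 in the 4 groups of mice. A second, dimmer probe set differed by -0.52. Parvalbumin interneurons are known to express Cox6a2 in mouse brain. The 5 genes listed for these cells were Pvalb, Gad1, Gad2, Kcnc1 and Syt2, which are not all particular to them. Their summed linear intensity, weighted to the brightest of the 5, was 7941 to 11768 on the hippocampal arrays, against 9597 to 16858 on the prefrontal cortex arrays. Pvalb differed by -0.90 ± 0.10 (adjusted p = 1.30e-11) and Syt2 by -0.98 ± 0.12 (adjusted p = 3.73e-11). The part of such cells in the difference of Cox6a2 was not tested. The ubiquitous partner Cox6a1 differed by -0.027 ± 0.016 (adjusted p = 0.132), but was called lower with the mean of its probe sets (-0.099, adjusted p = 3.11e-07) and with arrays centred on their medians (-0.048, adjusted p = 0.0301).

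Cox6b2, known as the testis form of subunit 6B, ran from 5.67 to 7.61 (median 6.66) in hippocampus, against 5.85 to 6.75 (median 6.30) in prefrontal cortex. The groups overlapped widely, with 11 of 32 hippocampal arrays above every prefrontal cortex array. The difference was 0.39 ± 0.079 (adjusted p = 1.69e-05), while the ubiquitous Cox6b1 was lower, at -0.093 ± 0.020 (adjusted p = 4.59e-05). In the arrays numbered 5 to 8 alone Cox6b1 was not called (-0.047, adjusted p = 0.132). Cox8b, the muscle form of subunit 8, ran from 6.39 to 8.80 (median 6.70) in hippocampus, against 6.16 to 6.95 (median 6.53) in prefrontal cortex. It was higher by 0.45 ± 0.12 (adjusted p = 0.000608), with 10 of 32 hippocampal arrays above every prefrontal cortex array, and the ubiquitous Cox8a was lower, at -0.093 ± 0.017 (adjusted p = 2.89e-06).

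The 3 hippocampal arrays with the highest Cox8b values were also the 3 highest in choroid plexus markers. These were Tg2576 with PF-04447943 replicate 4, wild type with PF-04447943 replicate 5 and wild type with vehicle replicate 5. Cox8b read 8.65, 8.73 and 8.80 on them, against at most 7.56 on the other 29. The summed linear intensity of 5 choroid plexus markers (Ttr, Folr1, Kl, Clic6 and Kcnj13) was 36740 to 40424 on these 3 arrays, 642 to 31369 on the other 29 hippocampal arrays and 260 to 1366 on the prefrontal cortex arrays. The 3 arrays were picked by the mean log2 of these 5 markers, so their high marker values follow largely from that choice. All 5 markers were above the other 29 arrays on each of the 3. Of the 83 members, Cox8b and Cox6b2 were the 2 with all 3 arrays above the other 29, and none had all 3 below. The share of all genes placed in this way was not counted, so these counts only describe the members. Without these 3 arrays Cox8b was higher in hippocampus by 0.26 (adjusted p = 9.32e-05) and Cox6b2 by 0.31 (adjusted p = 5.77e-05). The part of the choroid plexus markers in the remaining difference was not tested.

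**Figure D2:**
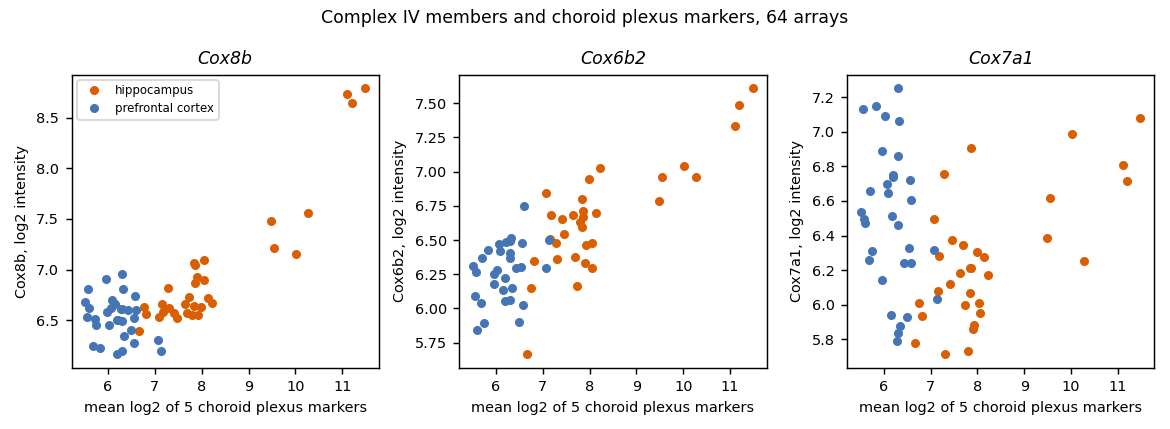
Log2 intensity of Cox8b, Cox6b2 and Cox7a1 (y axes) against the mean log2 intensity of 5 choroid plexus markers (x axis), 1 point per array, with 32 hippocampal and 32 prefrontal cortex arrays. The 3 hippocampal arrays at the far right carry the highest Cox8b values, 8.65 to 8.80, and the highest Cox6b2 values.

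The other isoforms of complex IV were less steady. Cox7a1, the muscle form of subunit 7A, was lower, at -0.23 ± 0.097 (adjusted p = 0.0280), but the difference was -0.50 in the arrays numbered 1 to 4 and 0.029 in those numbered 5 to 8. In vehicle-treated wild-type mice alone the difference was 0.016. Cox7a1 was not called with the signal range (adjusted p = 0.2465) or RNA quality (adjusted p = 0.3078) as a covariate. Cox7a2 was lower, at -0.13 ± 0.019 (adjusted p = 1.92e-08), and Cox7a2l, a supercomplex assembly factor, was higher by 0.058 ± 0.023 (adjusted p = 0.0216). That call of Cox7a2l was lost when arrays were centred on their medians (adjusted p = 0.140), and another of its probe sets pointed the other way. Cox8c, the testis form of subunit 8, was called higher at 0.16 ± 0.068 (adjusted p = 0.0359), but this mean joins a difference of 0.52 in numbers 1 to 4 and of -0.21 in numbers 5 to 8, where it was lower (adjusted p = 0.00444). With the signal range or RNA quality as a covariate Cox8c was not called (adjusted p = 0.8426 and 0.2075). Cox4i1, the main form of subunit 4, was lower, at -0.10 ± 0.015 (adjusted p = 6.50e-09), and its hypoxia-linked isoform Cox4i2 differed by 0.055 ± 0.036 (adjusted p = 0.162).

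**Figure D3:**
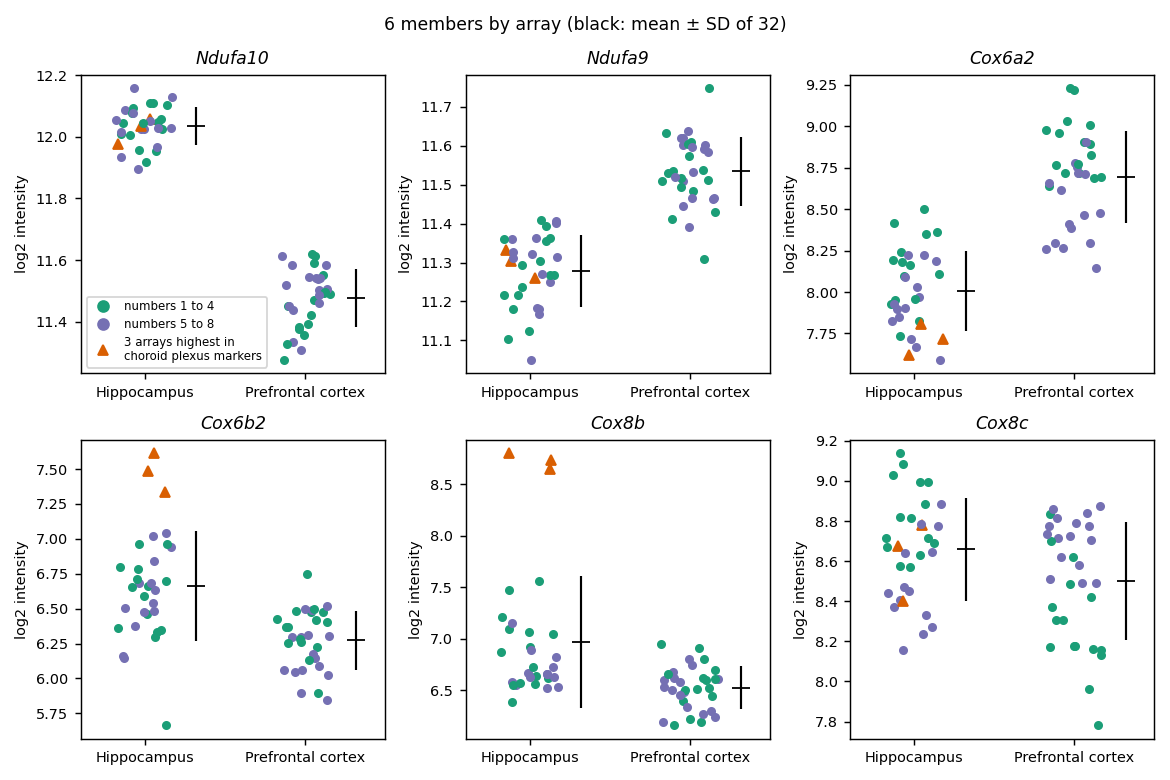
Log2 intensity (y axis) of 6 members on each hippocampal array (left in each panel) and prefrontal cortex array (right), coloured by replicate number, with triangles for the 3 arrays highest in choroid plexus markers and black bars for the mean with SD of 32. Ndufa10 separates the regions on every array, and Cox8c lies higher in hippocampus for numbers 1 to 4 and lower for numbers 5 to 8.

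Among the other ubiquitous subunits of complex IV, Cox5a was lower, at -0.19 ± 0.029 (adjusted p = 3.02e-08), although 1 of its 3 probe sets pointed the other way at 0.024. Cox7c was lower, at -0.18 ± 0.060 (adjusted p = 0.00747), and the difference was -0.40 in numbers 1 to 4 and 0.048 in numbers 5 to 8. Its probe set is dim, at 6.79 on average, and of a type that can bind related transcripts. With the signal range as a covariate Cox7c was not called (adjusted p = 0.0984). Cox6c, with the smallest SE of the complex, was lower, at -0.072 ± 0.014 (adjusted p = 6.12e-06). Cox5b differed by -0.019 ± 0.017 (adjusted p = 0.310), and by -0.073 with the mean of its probe sets, where it was called (adjusted p = 0.00016). That mean includes a probe set at 5.30, below the filter, which differed by -0.34.

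The ATP synthase differed least. Atp5b, the catalytic beta subunit, averaged 13.74 ± 0.04 in hippocampus and 13.83 ± 0.05 in prefrontal cortex (SD, n = 32 each), a difference of -0.090 ± 0.014 (adjusted p = 1.46e-07). Its partner Atp5a1, the alpha subunit, differed by -0.038 ± 0.022 (adjusted p = 0.117). Atp5a1 was called lower with arrays centred on their medians (-0.059, adjusted p = 0.0185) and with RNA quality as a covariate (-0.092, adjusted p = 1.275e-05). Atp5mpl, a small subunit of the membrane part, was lower, at -0.16 ± 0.020 (adjusted p = 2.52e-10), and Atp5o, which links the catalytic head to the peripheral stalk, at -0.12 ± 0.021 (adjusted p = 2.85e-06). The c-ring genes Atp5g1 (-0.071 ± 0.034, adjusted p = 0.0557), Atp5g2 (-0.0057 ± 0.027, adjusted p = 0.858) and Atp5g3 (0.0044 ± 0.016, adjusted p = 0.811) did not pass, although Atp5g1 passed on leaving out any 1 of 22 arrays. With the mean of all probe sets, Atp5g1 was higher by 0.12 (adjusted p = 0.0237) and Atp5g2 by 0.16 (adjusted p = 1.38e-06). These means include dim probe sets. The other probe set of Atp5g1, at 6.01, lay near the filter of 5.93 and differed by 0.31. Those of Atp5g2, at 5.04 and 3.28, lay below it and differed by 0.46 and 0.032. Atp5e, the epsilon subunit, differed by -0.019 ± 0.031 (adjusted p = 0.592).

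The signs of the called differences were then compared across the groups of mice and across replicate numbers. The calls rest on the mean of these same arrays, which favours agreement of sign. The counts are therefore descriptions and no separate test, and they were not made over all called genes. Of the 47 called genes, 45 had the same sign in all 4 groups, the exceptions being Cox7a1 and Cox7a2l. In 40 of 47 the sign was the same in the arrays numbered 1 to 4 and those numbered 5 to 8, and the exceptions were Ndufa6, Ndufb9, Ndufs7, Ndufv1, Cox7a1, Cox7c and Cox8c. For numbers 1 to 4, 44 of 51 calls were lower, and for numbers 5 to 8, 20 of 35 were. In vehicle-treated wild-type mice alone, 26 of 81 genes were called, 7 higher and 19 lower, against 44.9% of all genes tested (21.1% higher, 23.8% lower), and 32 members had an unadjusted p under 0.05, against 51.7% of all genes. Of 26 called genes with further probe sets above the filter, 20 had the same sign on all of them.

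Genes around the complexes were set beside them. Of all 12954 genes tested between regions, 33.0% were higher and 39.0% lower in hippocampus, and no list was tested against these shares. Of 43 tested assembly factors, which build the complexes without staying in them, 4 were higher and 30 lower in hippocampus, with a median difference of -0.12. The largest were Ndufaf1 for complex I (-0.34 ± 0.07, adjusted p = 1.48e-05), Atpaf1 for the ATP synthase (-0.32 ± 0.05, adjusted p = 3.49e-08) and the copper carrier Sco2 (0.31 ± 0.05, adjusted p = 1.55e-08). Of 16 genes of the tricarboxylic acid cycle and pyruvate dehydrogenase, 1 was higher and 11 lower, with Idh3a at -0.26 ± 0.02 (adjusted p = 2.78e-15). Carriers of electrons, adenine nucleotides and phosphate were higher in 5 and lower in 9 of 17. Of 17 regulators of mitochondrial gene expression 1 was higher and 7 lower, with Tfb1m at -0.31 ± 0.05 (adjusted p = 2.45e-08) and Gabpa, a subunit of an ETS factor, at 0.25 ± 0.03 (adjusted p = 1.04e-09). In glycolysis 4 of 13 genes were higher and 8 lower, and 2 phosphofructokinase genes went opposite ways, Pfkl at 0.68 ± 0.04 (adjusted p = 1.05e-24) and Pfkp at -0.55 ± 0.04 (adjusted p = 2.03e-19).

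Within a group of mice the subunit genes varied little and moved together from array to array. The median SD within groups was 0.096 over the members and 0.15 over all genes in hippocampus, and 0.085 and 0.16 in prefrontal cortex. The most variable members were all isoforms of complex IV: Cox8b (SD 0.65), Cox6b2 (0.40) and Cox7a1 (0.37) in hippocampus, and Cox7a1 (0.42), Cox8c (0.30) and Cox6a2 (0.29) in prefrontal cortex. The steadiest were Atp5b (0.045) in hippocampus and Cox6c (0.029) in prefrontal cortex. After removing group means, the median correlation between a pair of members over 32 arrays was 0.39 in hippocampus (0.47 within complex I, 0.19 within complex IV) and 0.23 in prefrontal cortex (0.34 within complex I, 0.078 within complex IV). Over all pairs of genes it was 0.051 and 0.13. The arrays share their normalization and the signal range of each array, so these values are descriptions.

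The transgene was compared next, to see what mutant amyloid precursor protein does to these genes in mice of this age. No subunit gene passed in Tg2576 against wild-type mice, in either region, averaged over treatments or under PF-04447943 or vehicle alone. In hippocampus, averaged over treatments, limma called 0.0925% of all 12966 genes tested, and 4 of 81 members had an unadjusted p under 0.05, against 8.13% of all genes. Cox7c had the smallest p. It averaged 6.60 in Tg2576 and 6.80 in wild-type hippocampus, a difference of -0.20 ± 0.071 (adjusted p = 0.420), and 12 of 16 Tg2576 arrays lay below the wild-type mean of their treatment. Ndufa13 differed by -0.065 ± 0.029 (adjusted p = 0.556) and Ndufa1 by -0.069 ± 0.032 (adjusted p = 0.579). In hippocampus 1 member under vehicle and 2 under PF-04447943 had an unadjusted p under 0.05, against 5.62% and 5.0% of all genes. The adjusted threshold was passed by 0.00771% of all genes under vehicle and by none under PF-04447943. The smallest p values under vehicle were those of Cox4i2 (-0.16 ± 0.073, adjusted p = 0.838), Ndufa8 (0.091 ± 0.045, adjusted p = 0.874) and Ndufa10 (0.070 ± 0.036, adjusted p = 0.894). Under PF-04447943 they were those of Cox7c (-0.23 ± 0.10), Ndufa13 (-0.086 ± 0.041) and Ndufs5 (-0.086 ± 0.049), each with an adjusted p of 0.874.

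In prefrontal cortex, averaged over treatments, 2 members had an unadjusted p under 0.05, against 12.2% of all genes, of which 0.0464% passed the adjusted threshold. Ndufb1, a small complex I subunit, averaged 8.07 in Tg2576 and 7.94 in wild-type mice, a difference of 0.13 ± 0.052 (adjusted p = 0.349), and 14 of 16 Tg2576 arrays exceeded the mean of wild-type mice on the same treatment. Cox8a differed by -0.057 ± 0.027 (adjusted p = 0.389) and Ndufv2 by 0.079 ± 0.040 (adjusted p = 0.408). Under vehicle 8 members had an unadjusted p under 0.05, against 12.1% of all genes, with Ndufs8 at 0.14 ± 0.052 (adjusted p = 0.349), Ndufs1 at 0.12 ± 0.048 (adjusted p = 0.360) and Cox4i2 at -0.15 ± 0.070 (adjusted p = 0.401). Under PF-04447943 1 member did, against 3.68% of all genes, and Cox8a (-0.11 ± 0.038), Ndufb1 (0.13 ± 0.074) and Cox6a1 (-0.064 ± 0.036) had the smallest p values, each with an adjusted p of 0.990. The widest fitted difference in any of these comparisons was that of Cox8b under vehicle in hippocampus, -0.44 ± 0.31 (adjusted p = 0.951), where wild type with vehicle replicate 5, at 8.80, is 1 of the 3 arrays highest in choroid plexus markers.

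The drug was then compared with vehicle. Averaged over genotypes in hippocampus, 1 of 81 subunit genes was called, Ndufa4l2, which was lower under PF-04447943, against 2.34% of all genes (0.787% higher and 1.55% lower). Ndufa4l2 is a paralog of Ndufa4 that is induced by hypoxia-inducible factor, and it is known in brain as a marker of pericytes. In Tg2576 hippocampus it ran from 7.24 to 7.62 (median 7.46) under PF-04447943, against 7.43 to 7.87 (median 7.61) under vehicle. In wild-type hippocampus it ran from 7.35 to 7.50 (median 7.41) under PF-04447943, against 7.46 to 7.75 (median 7.59) under vehicle. All 16 arrays with PF-04447943 lay below the vehicle mean of their genotype, and 3 of 8 in Tg2576 and 6 of 8 in wild-type mice lay below every vehicle array, so that the ranges overlapped in both genotypes.

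The difference in Ndufa4l2 averaged over genotypes was -0.19 ± 0.040 (adjusted p = 0.0150), 1.14-fold lower. It was -0.21 ± 0.057 in Tg2576 (adjusted p = 0.287) and -0.17 ± 0.057 in wild-type mice (adjusted p = 0.201), neither past the threshold. The probe set is dim, brighter in hippocampus than 28.0% of the genes tested, and it is the only 1 of this gene. The call was not made with the signal range of each array as a covariate (-0.11, adjusted p = 0.601), the measure that also differed between drug and vehicle hippocampi. It was also not made in the arrays numbered 5 to 8 alone (-0.13, adjusted p = 0.744). In prefrontal cortex its mean was 7.51 and 7.50 under PF-04447943 in Tg2576 and wild-type mice, against 7.49 and 7.48 under vehicle. The drug effect in hippocampus minus that in prefrontal cortex was -0.21 ± 0.057 (adjusted p = 0.140), and without the 3 arrays highest in choroid plexus markers it was -0.23 (adjusted p = 0.0443).

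**Figure D4:**
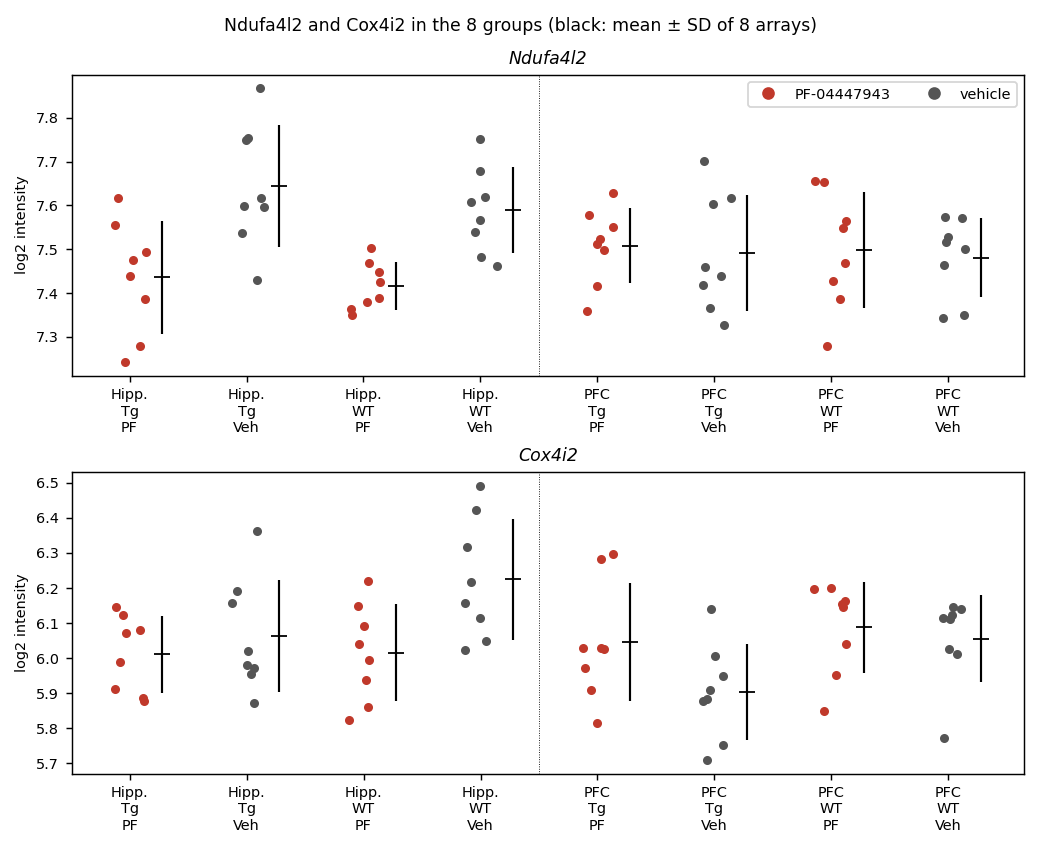
Log2 intensity (y axis) of Ndufa4l2 and Cox4i2 on each array of the 8 groups (Hipp., hippocampus; PFC, prefrontal cortex; Tg, Tg2576; PF, PF-04447943 in red; Veh, vehicle in grey), with black bars for the mean and SD of 8. Ndufa4l2 averaged 7.44 and 7.42 in the hippocampal groups with drug, against 7.64 and 7.59 with vehicle, and between 7.48 and 7.51 in the 4 cortical groups.

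Of the remaining genes in hippocampus, 4 had an unadjusted p under 0.05 for the drug averaged over genotypes, which with Ndufa4l2 makes 5 of 81 against 21.6% of all genes. Uqcrc2 averaged 12.01 under PF-04447943 and 11.87 under vehicle, a difference of 0.13 ± 0.046 (adjusted p = 0.0938), with 15 of 16 arrays above the vehicle mean of their genotype. It passed without Tg2576 vehicle replicate 5 (adjusted p = 0.0366) or replicate 8 (adjusted p = 0.0422). In Tg2576 mice 2 members had an unadjusted p under 0.05, against 11.1% of all genes, and the smallest p values after Ndufa4l2 were those of Uqcrc2 (0.14 ± 0.065, adjusted p = 0.430) and Atp5d (-0.10 ± 0.054, adjusted p = 0.481). In wild-type mice 4 did, against 13.6% of all genes, of which 0.0386% passed the adjusted threshold. Cox4i2 ran there from 5.82 to 6.22 (median 6.02) under PF-04447943, against 6.02 to 6.49 (median 6.19) under vehicle, with 4 of 8 arrays below every vehicle array. The difference was -0.21 ± 0.073 (adjusted p = 0.213), and it passed with array weights (-0.24, adjusted p = 0.0275). The Cox4i2 probe set lies close to the filter, brighter in hippocampus than only 2.34% of the genes tested. Ndufs4 differed by 0.11 ± 0.051 (adjusted p = 0.343).

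The median difference between drug and vehicle in hippocampus was 0.018 over the members and 0.030 over all genes, and 53 of 81 members lay above 0, against 64.6% of all genes. By complex the medians were 0.029 for complex I, 0.035 for complex II, 0.012 for complex III, -0.014 for complex IV and 0.0014 for complex V. Among the assembly factors 40 of 43 lay above 0, with a median of 0.056 and no call. Of the tricarboxylic acid cycle genes 15 of 16 did, with a median of 0.049 and no call. Of the regulators Tfb1m, a mitochondrial ribosomal RNA methyltransferase, was higher under PF-04447943 by 0.25 ± 0.06 (adjusted p = 0.0320). No gene of glycolysis or of the carriers was called.

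**Figure D5:**
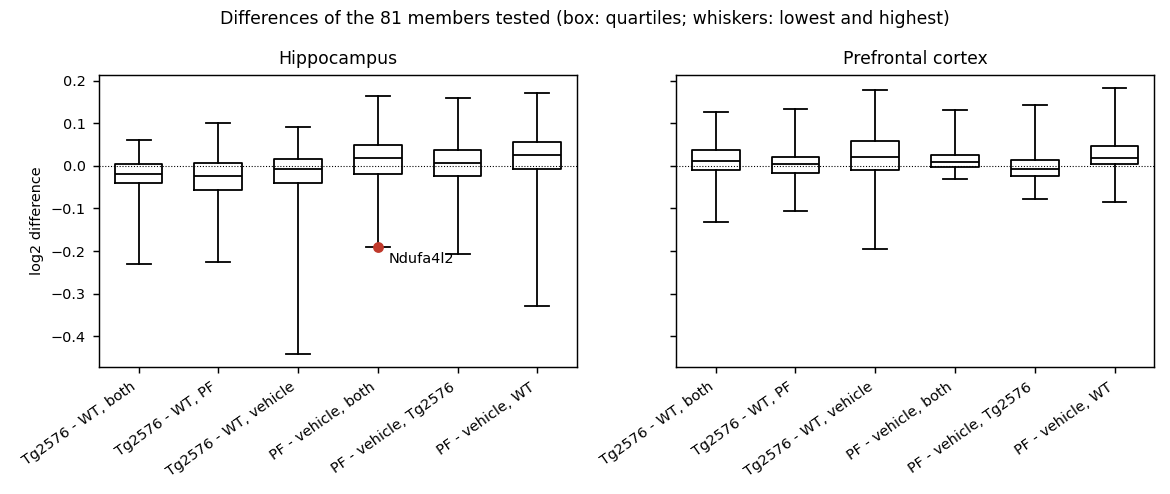
Log2 differences (y axis) of the 81 members in 6 comparisons of transgene and drug (x axis), in hippocampus (left) and prefrontal cortex (right), with boxes for the quartiles and whiskers for the lowest and highest gene. The single called gene, Ndufa4l2 at -0.19, is marked, and the widest whisker is Cox8b at -0.44 in vehicle hippocampus.

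In prefrontal cortex no subunit gene was called for the drug, where limma called 0.00773% of all 12932 genes averaged over genotypes. None of the members had an unadjusted p under 0.05 in that average, against 2.33% of all genes, none in Tg2576 mice, against 3.01%, and 1 in wild-type mice, against 2.52%. The smallest p values in the average were those of Ndufa10 (0.069 ± 0.035), Cox8b (0.13 ± 0.070) and Cox4i2 (0.087 ± 0.050), each with an adjusted p of 0.9997. In Tg2576 mice they were those of Cox4i2 (0.14 ± 0.070), Uqcrc2 (0.10 ± 0.057) and Atp5h (0.073 ± 0.040), and in wild-type mice those of Cox8a (0.084 ± 0.038), Uqcrfs1 (0.089 ± 0.046) and Ndufb6 (0.088 ± 0.046).

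Whether the drug acted differently in the 2 genotypes was tested as an interaction. No member passed in either region, and none had an unadjusted p under 0.05, against 2.78% of all genes in hippocampus and 3.31% in prefrontal cortex. The smallest p values were those of Cox4i2 (0.16 ± 0.10), Ndufb10 (-0.13 ± 0.084) and Ndufa8 (-0.081 ± 0.063) in hippocampus. In prefrontal cortex they were those of Cox8a (-0.098 ± 0.053), Ndufs8 (-0.13 ± 0.073) and Ndufv3 (-0.12 ± 0.073). No member's transgene effect differed between regions past the threshold, and none had an unadjusted p under 0.05, against 7.04% of all genes. Ndufb2 (-0.11 ± 0.058), Ndufs8 (-0.10 ± 0.056) and Ndufs4 (-0.090 ± 0.050) came first, each with an adjusted p of 0.680. For the drug effect by region 4 members had an unadjusted p under 0.05, against 9.72% of all genes, and none passed, against 0.00772%. After Ndufa4l2 came Cox4i2 (-0.22 ± 0.072, adjusted p = 0.248) and Ndufa10 (-0.092 ± 0.041, adjusted p = 0.460).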

How the data were processed

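RNA from 64 brain samples was hybridised to Affymetrix mouse arrays with 45101 probe sets. The deposited values are linear intensity values between 5.87 and 34088.9. The authors used RMA according to the submitters' processing notes, and its version is not given in the sources used here. The values were converted to log2. Precision is set by the 8 arrays of each group. Replicates are arrays of separate mice per the series' labels.

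The platform annotation named 34945 probe sets with 1 gene symbol, 932 with several, 9160 with none and 64 controls. A gene was represented by its brightest probe set on average over the 64 arrays. Genes under the 40th percentile of the probe sets (log2 5.94 in hippocampus, 5.91 in prefrontal cortex, 5.93 over both) were left out. Of the 83 chosen probe sets, 12 end in _s_at and 3 in _x_at, types that can bind related transcripts.

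Differences were tested with limma 3.58.1 in R 4.3.3 (with the package data.table, version 1.17.8), 4 groups per region or 8 over both, two-sided, and p values were adjusted by the Benjamini-Hochberg method across every gene in the fit. On simulated data for the regional comparison of 12954 genes, 68% of changes of log2 0.2 and 99% of 0.5 were recovered, and for the hippocampal drug comparison of 12966 genes 42% and 96%. Only 100 genes were changed at each size, while 72.1% of all genes were called between regions in the data. The adjusted threshold depends on that share, so the simulated recovery need not hold for the regional calls. Tables and figures were made with matplotlib 3.10.9, pandas 2.3.3 and numpy 2.4.6 under Python 3.11.15.

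The members, gene lists, replicate-number split and tests were chosen with earlier results of these data known. Named genes are those called for transgene or drug (otherwise the 3 with the smallest p), per complex the 3 largest regional rises and falls, isoform sets, core subunits, genes below the filter, and up to 3 called genes of other lists. Cox6c, Ndufa4, Ndufa6, Ndufb9 and the genes that 1 array or 1 setting brought up were named after their values were seen. Alternatives were other filters, probe set means, quantile normalization, median centring, a robust trended prior, array weights, covariates, a replicate block, all arrays in 1 fit, a threshold of 0.10 and each array left out. Taking numbers 1 to 4 or 5 to 8 alone, and leaving out the 3 hippocampal arrays highest in choroid plexus markers, were added after the data were seen.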

Additional observations from a re-analysis of the deposited data

Results flagged for a closer look

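Of 168 groups of 8 arrays, 21 genes in 8 groups each, 12 held an array that stood apart from the other 7 by more than Dixon's 95% critical share of the whole range. Chance flags about 1 in 20 such groups, which is 8.4 here. The highest Cox8b array stood apart in 3 hippocampal groups: 8.65 in Tg2576 with PF-04447943 replicate 4 (others 6.39 to 7.10), 8.73 in wild type with PF-04447943 replicate 5 (others 6.52 to 7.07) and 8.80 in wild type with vehicle replicate 5 (others 6.57 to 7.56). These are the 3 arrays highest in choroid plexus markers. Cox6b2 stood apart on the last of them at 7.61 (others 6.48 to 6.96), and at 5.90 in Tg2576 prefrontal cortex with PF-04447943 replicate 1 (others 6.26 to 6.52).

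Cox4i1 was high in hippocampus of Tg2576 with vehicle replicate 5, at 13.50 (others 13.35 to 13.38), and in prefrontal cortex of Tg2576 with PF-04447943 replicate 7, at 13.54 (others 13.46 to 13.49). The remaining ones were all in prefrontal cortex. Cox4i2 was low in wild type with vehicle replicate 1, at 5.77 (others 6.01 to 6.15). Uqcrc2 was low in wild type with PF-04447943 replicate 8, at 11.56 (others 11.79 to 11.98). Ndufa10 was low in wild type with PF-04447943 replicate 5, at 11.31 (others 11.49 to 11.61). Ndufa8 was high in Tg2576 with vehicle replicate 1, at 11.97 (others 11.66 to 11.80), and Ndufs4 in Tg2576 with PF-04447943 replicate 3, at 10.45 (others 10.14 to 10.28).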

How the results depend on the processing

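The regional count of 47 called members stayed between 43 and 53 under other filters, scalings, covariates, priors and thresholds and with numbers 1 to 4 alone. It was 35 with numbers 5 to 8 alone, and ranged from 46 to 51 with each array left out. The genes called were not always the same. All 47 kept call and sign with no filter, array weights or the robust trended prior. With the signal range as a covariate 39 did, with probe set means 40, with median centring 40 and after quantile normalization 42. With numbers 1 to 4 alone 40 of the 47 did, and with numbers 5 to 8 alone 30. In vehicle-treated wild-type mice the count of 26 became 17 with numbers 1 to 4 and 13 with numbers 5 to 8 alone, and ranged from 22 to 29 with each array left out. For the drug in hippocampus the single call became 2 at an adjusted p under 0.10, none (0) with the signal range as a covariate, 6 with numbers 1 to 4 alone (3 higher: Uqcrc2, Sdhc and Ndufb2, and 3 lower: Ndufa4l2, Cox8c and Ndufa7) and 0 with numbers 5 to 8 alone. It was 1 to 2 with each array left out, and 2 without Tg2576 vehicle replicate 5 or 8. In wild-type hippocampus the count of 0 became 1 with array weights (Cox4i2). For the drug by region it became 1 with numbers 1 to 4 alone (Ndufa10) and 1 without the 3 arrays highest in choroid plexus markers (Ndufa4l2). All other counts for transgene, drug and interaction were 0 under every alternative run. Signs turned for called regional differences with numbers 5 to 8 alone in Cox8c (-0.21), Cox7a1 (0.029), Ndufv1 (0.0089), Ndufs7 (0.017), Ndufa6 (0.026) and Cox7c (0.048), and with numbers 1 to 4 alone in Ndufb9 (-0.0042). Atp5e, not called over all arrays, was called at -0.15 in numbers 1 to 4 and at 0.11 in numbers 5 to 8. Atp5g1 and Atp5g2, not called either, were called higher with the mean of probe sets (0.12 and 0.16) and lower in numbers 1 to 4 (-0.12 and -0.095). The mean of probe sets includes dim ones of both genes. A change of sign between values that both missed the threshold was not counted. Among single regional calls, Cox8c was also lost on leaving out any 1 of 16 arrays, all numbered 1 to 4. The causes were not tested. The labels do not say that a number marks 1 mouse. Between regions, r was over 0.1 in 19 of 32 pairs of 1 number, and 18 hippocampal arrays correlated best with their own number. These were 6 of 8 each in Tg2576 with vehicle, wild type with PF-04447943 and wild type with vehicle. In Tg2576 with PF-04447943 they were 0 of 8. Between groups of 1 region the own number was best in 21 of 96. Whether a number marks 1 mouse was not tested, and the main fit treats all arrays as separate. With number as a block, limma called 48 members between regions and 28 in vehicle-treated wild-type mice, and no other count moved. Between regions it added Atp5g1 (adjusted p = 0.00753), Atp5j2 and Uqcrq, and lost Cox8c (adjusted p = 0.106) and Ndufb11.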

Other observations

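Some lists were drawn up after the values of Ndufa4l2 and Cox4i2 had been seen. For the drug in hippocampus, none of 8 mural cell and pericyte genes and none of 11 tested targets of hypoxia-inducible factor was called, with 2 of 8 and 7 of 11 above 0 and medians of -0.030 and 0.031. The summed linear intensity of the 8 mural cell genes ran from 2817 to 4247 in Tg2576 hippocampus with PF-04447943, against 3057 to 3739 with vehicle, and from 3241 to 4033 in wild-type hippocampus with PF-04447943, against 3073 to 3913 with vehicle. Between regions, 1 of 7 tested mural cell genes was higher and 5 were lower in hippocampus (median -0.23). Of 11 targets of hypoxia-inducible factor 2 were higher and 8 lower (median -0.25). Over all genes tested, 33.0% were higher and 39.0% lower.

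Choroid plexus markers differed widely between hippocampal arrays. Their summed intensity had a median of 4729 in Tg2576 with PF-04447943, against 4976 with vehicle, and of 4712 in wild type with PF-04447943, against 15400 with vehicle.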
